A study of Mus musculus with 7 samples.

Results

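Stomach-type tissue grown from mouse embryonic stem (ES) cells and taken on culture day 46 was set against adult mouse intestine, to see how far its goblet, absorptive and other intestinal genes reached the level of the organ. The comparison uses 2 of the 7 one-colour microarrays of the series, chosen by their labels, with 1 array on each side. Of the 17041 named genes on the array, the 15708 well above background on at least 1 of the 2 arrays were compared. Of these, 14118 were well above background on both, 1316 on the day 46 array alone and 274 on the intestine array alone. The day 46 array was the brighter, with a 75th percentile of log2 intensity of 10.75, against 8.58 on the intestine array. The part of this brightness in the counts detected on 1 array alone was not tested. With 1 array per group there is no test, no error and no p-value, and every result is a size, a count or a median that describes these 2 arrays.

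The day 46 tissue came from mouse ES cells that first spent 42 days in a medium with EGF, FGF10, Noggin, Wnt3a and R-spondin1. It then spent 4 days with the signalling proteins Shh (100 ng per mL) and Bmp4 (10 ng per mL), and the labels do not say which of the first factors were withdrawn. The adult intestine was isolated fresh from ICR mice, an outbred strain. The ES cell line, the number of cultures or animals behind each RNA, the age of the mice and the part of the intestine are not given in the sources used here. The day 42 tissue (the first medium only) and the adult stomach, each also 1 array, are quoted beside some values, and those differences share the intestine array.

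The lining of the intestine is built from a few cell types renewed from stem cells at the base of the crypts. Enterocytes absorb sugars, peptides, fats and minerals through a brush border of microvilli, goblet cells secrete the mucus gel, Paneth cells secrete antimicrobial peptides, and enteroendocrine and tuft cells sense the contents of the gut. The homeobox factors Cdx1 and Cdx2 and the nuclear receptors of the Hnf4 family drive the enterocyte genes, while Atoh1 starts the secretory lineages. The stomach lacks Cdx expression and makes its own surface mucus, with Muc5ac, the trefoil peptide Tff1 and the gastrokines in place of the goblet products Muc2 and Tff3.

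Levels are log2 signals relative to the 75th percentile of their own array, and they are compared between samples for 1 gene, never between genes. Differences are log2 differences, day 46 tissue minus adult intestine, so that -1 stands for a signal 2-fold lower in day 46 tissue. A gene is said to be at organ level where this difference was -1 or above, and far below it where the signal was more than 16-fold lower (a difference below -4). Where the lower array did not detect a gene well above background, its fold is a bound set by the background of that array and is written "at least". That background differed, with a lowest level above it of -7.13 on the day 46 array and -6.18 on the intestine array. These bounds hold for the background treatment used here: with normexp correction, which models the background and adds a constant, the difference was smaller for all 43 named genes given as bounds, by a median of 2.80. In bulk tissue, fewer cells of a type and less RNA per cell cannot be told apart.

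Over the whole array, the signal of 1468 genes (9.35% of those compared) was 4-fold or more above the intestine in day 46 tissue, that of 1922 genes (12.2%) was 4-fold or more below it, and the median difference was 0.07. Of the 14392 genes well above background in adult intestine, 73.6% were at organ level in day 46 tissue and 4.21% were far below it. Across genes, Spearman's rho of the day 46 array was 0.817 with adult intestine, 0.859 with adult stomach and 0.976 with day 42 tissue, which describes these arrays alone since genes are not replicates. The day 46 array lay on a slide of its own and the 4 adult organs shared another, so slide and group cannot be told apart. On the unscaled log2 scale, 10 spike-in probes had a median difference of -2.79, day 46 minus intestine, with a range from -3.01 to 2.67. The 75th percentile went the other way, at 10.75 on the day 46 array and 8.58 on the intestine array. Scaling by the spike-ins would therefore give other differences, and it was not tried. Where a gene had several probes above background on both arrays (4814 genes), the difference had a standard deviation of 0.88 between probes.

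**Figure D1:**
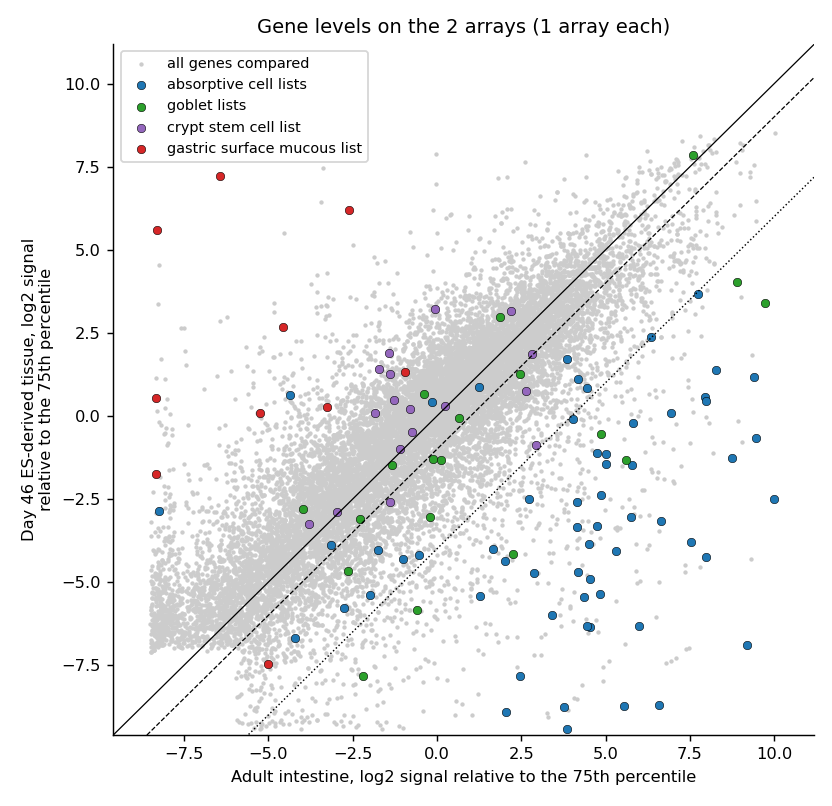
Log2 signal of each compared gene in day 46 ES-derived tissue (vertical axis) and in adult intestine (horizontal axis), each relative to the 75th percentile of its array, with 1 array each. Grey points are all 15708 genes, the solid line marks equal levels, the dashed line 2-fold lower and the dotted line 16-fold lower; most genes of the absorptive lists lie below the dotted line, while 14 of 17 crypt stem cell genes lie above the dashed line.

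Across 13 lists of intestinal genes, 219 members were well above background in adult intestine, and 59 of them (26.9%) were at organ level in day 46 tissue, against 73.6% of all genes. Another 49 lay between 2-fold and 16-fold lower, and 111 were far below the organ. Far below lay 15 of 16 brush border hydrolases, 13 of 17 genes of fat uptake, 17 of 26 transporters, 11 of 15 structural genes, 12 of 18 metabolic genes, 9 of 12 Paneth products and 13 of 23 enteroendocrine genes, where all genes gave 4.21%. The count was 4 of 7 for goblet products, 6 of 14 for mucosal defence, 3 of 12 for goblet regulators and 7 of 28 for transcription factors. It was 1 of 14 for tuft cell genes and none of 17 for crypt stem cell genes, and the shares of these lists at organ level (71.4% and 82.4%) were near that of all genes. The lowest level above background on the day 46 array was -7.13, so genes low in the organ had little or no room to be far below it. The median level in adult intestine was -2.46 for tuft cell genes and -1.11 for crypt stem cell genes, against 5.01 for hydrolases. The counts far below therefore do not rank the lists. Against the same intestine array, day 42 tissue also had 59 at organ level and 113 far below, where all genes gave 73.7% and 3.95%. Adult stomach had 69 at organ level and 96 far below, where all genes gave 81.3% and 2.71%. These are counts, and they do not say that the members were the same.

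**Figure D2:**
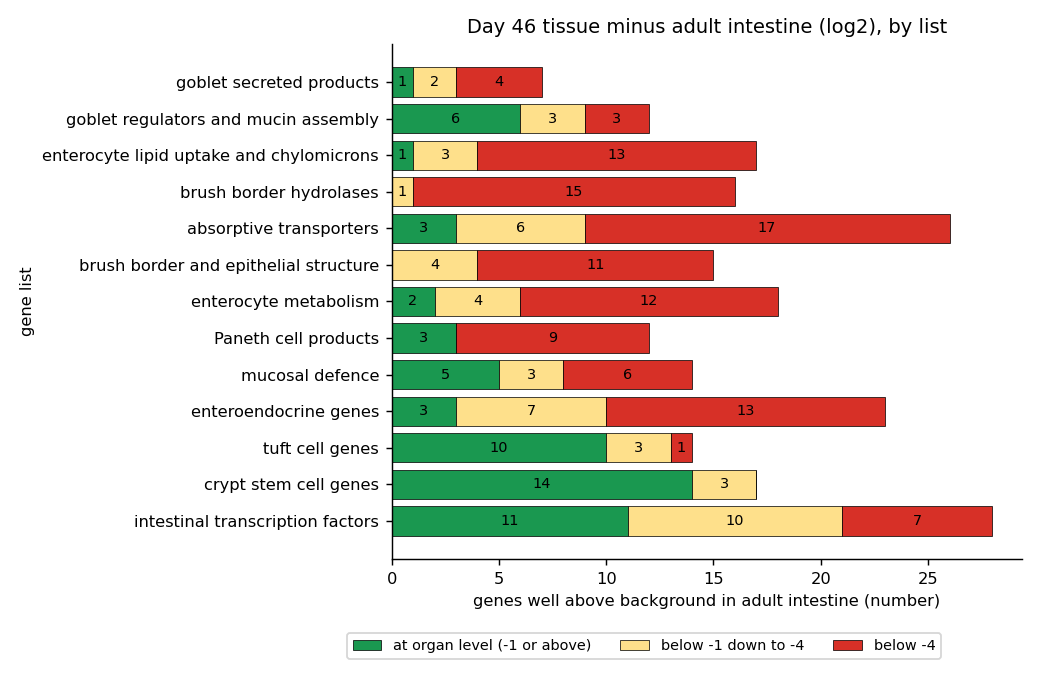
Number of genes of each of 13 intestinal lists that were well above background in adult intestine (bar length), split by the log2 difference of day 46 tissue minus adult intestine. Green is at organ level, yellow between 2-fold and 16-fold lower and red more than 16-fold lower; green covers 14 of 17 crypt stem cell genes and none of the 16 brush border hydrolases.

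Goblet cell secreted products ran from the level of the organ to far below it. Clca1, a secreted metalloprotease that processes the mucus gel, was at 7.87 in day 46 tissue, against 7.59 in adult intestine, a difference of 0.28. It was the 1 member of 7 at organ level, and it had been at -0.89 in day 42 tissue and 0.94 in adult stomach. The difference stayed positive under each other normalization, filter and probe rule tried, between 0.23 and 1.34. Zg16, a lectin that binds bacteria in the mucus, was at 3.40 in day 46 tissue, against 9.74 in adult intestine. Its signal was therefore 81.1-fold lower, 1.23% of the intestinal one, although day 42 tissue (-3.45) and adult stomach (-4.05) were lower still. Tff3, the trefoil peptide of goblet cells, was at 4.04 in day 46 tissue, against 8.89 in adult intestine, 28.8-fold lower, with day 42 tissue at 1.66 and stomach at -0.84. These genes thus shared a higher signal in day 46 than in day 42 tissue and in stomach, and only Clca1 of the 3 stood at the level of the organ.

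The other goblet products measured were below organ level, and Spink4 did not share the order of Clca1, Zg16 and Tff3. Spink4, a trypsin inhibitor of goblet cells, was at -1.33 in day 46 tissue, against 5.60 in adult intestine, a difference of -6.94, and day 42 tissue (2.40) and stomach (4.35) were both higher than day 46 tissue. The tryptase Tpsg1 was at -4.15 in day 46 tissue, against 2.25 in adult intestine, and at -4.29 in day 42 tissue. Rep15, a partner of the small GTPase Rab15, differed by -1.21 with 1.27 in day 46 tissue, against 2.48 in adult intestine. Klk1, a kallikrein, differed by -2.83 on the probe used and by -6.77 on another. The median difference of the 7 products was -4.85. Neither array detected Retnlb well above background, and Muc2, the main gel-forming mucin, and Fcgbp had no named probe and were not analysed here.

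The regulators of goblet cells and the enzymes of mucin assembly lay closer to the organ than the products, with a median difference of -0.997. At organ level were 6 of 12, fewer than the 73.6% of all genes. Their median level in adult intestine was -0.59, against 4.04 for the products, so they had less room to fall before reaching background. The transcription factor Spdef, which drives goblet maturation, was at -1.30 in day 46 tissue, against -0.13 in adult intestine, and was higher in day 42 tissue (2.81) and stomach (1.78). Foxa3 was at -1.48 in day 46 tissue, against -1.34 in adult intestine, a difference of -0.14. Atoh1, the factor that starts the secretory lineages, was at -4.66 in day 46 tissue, against -2.63 in adult intestine, 4.08-fold lower, and was not well above background in day 42 tissue or in stomach. Gfi1, which acts downstream of Atoh1, was not well above background in day 46 tissue and was at -2.20 in adult intestine, at least 30.3-fold lower. Factors of the lineage were thus measured at levels from near the organ to below detection.

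Among the enzymes, Galnt12, which adds the first sugar to mucins, was at 2.98 in day 46 tissue, against 1.88 in adult intestine. The stress sensor Ern2 was at -3.11 in day 46 tissue, against -2.29 in adult intestine, within 2-fold. Agr2, the disulfide isomerase needed to fold mucins, was at -0.54 in day 46 tissue, against 4.87 in adult intestine. Its signal was 42.4-fold lower, and in day 42 tissue (6.78) and stomach (6.66) it was above the intestine. Creb3l1 differed by 1.18, and by -0.04 with another background correction. The remaining measured members were Sytl2 (1.04), Bcas1 (-0.74), Creb3l4 (-1.44) and Capn9 (-5.27). Neither array detected St6galnac1 well above background.

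**Figure D3:**
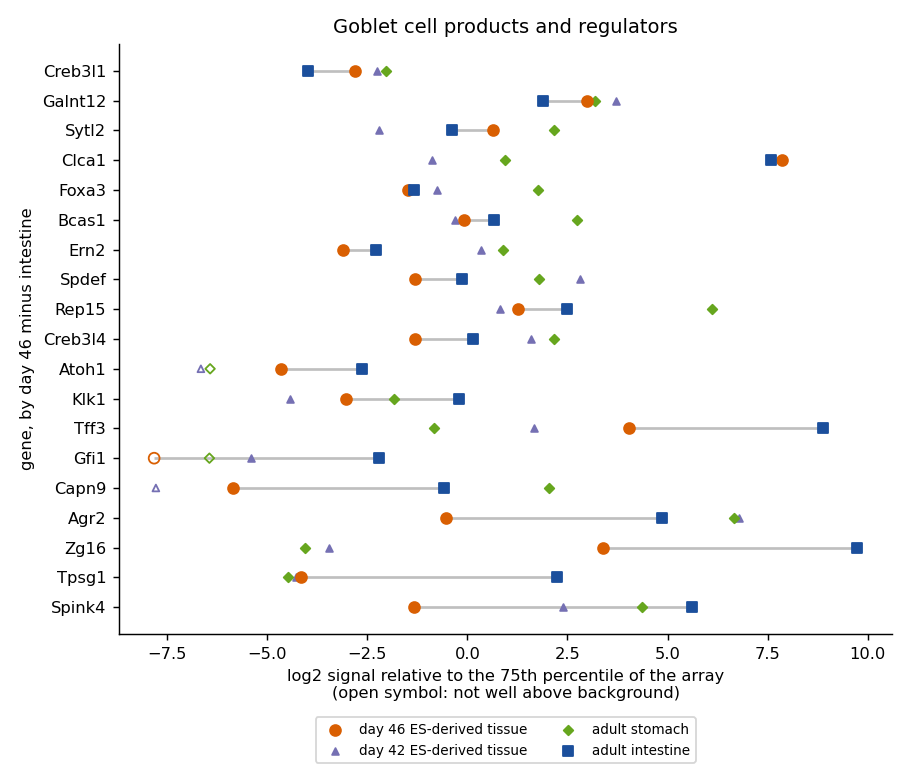
Log2 signal relative to the 75th percentile of the array for each goblet gene, ordered by the difference of day 46 tissue minus adult intestine, with day 42 tissue and adult stomach beside them and 1 array per group. Open symbols are not well above background; Clca1 is at 7.87 in day 46 tissue, against 7.59 in adult intestine, while Zg16, Tff3 and Agr2 lie far to the left of the intestine.

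The absorptive lists held 59 genes well above background in adult intestine, of which 4 were at organ level in day 46 tissue and 45 far below it. Adult stomach had 3 at organ level and day 42 tissue 3. The brush border hydrolases digest sugars and peptides at the surface of the enterocyte, and none of 16 was at organ level (median difference -8.80). Lactase, Lct, was at 9.19 in adult intestine and not well above background in day 46 tissue, at least 69754-fold lower, a difference of -13.05 (8455-fold) with normexp correction. Sucrase-isomaltase, Sis, was at -4.23 in day 46 tissue, against 7.99 in adult intestine, a difference of -12.22. Of the peptidases, aminopeptidase N, Anpep, was at 1.16 in day 46 tissue, against 9.40 in adult intestine, 303-fold lower. Trehalase (Treh), the meprin subunit Mep1b and enteropeptidase (Tmprss15) were likewise not detected well above background there, and their signals were lower by at least 13418-fold, 6546-fold and 764-fold.

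The smaller differences among the hydrolases were those of the alkaline phosphatases Akp3 (-2.48) and Alpi (-5.66, and -11.16 on another probe) and of the aminopeptidase Enpep (-5.85). Akp3 had a low level in the intestine itself, at -6.70 in day 46 tissue and -4.22 in adult intestine. The peptidase Ace differed by -6.44, and dipeptidyl peptidase Dpp4 by -6.18.

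Genes of fat uptake and of chylomicron assembly, the packing of dietary fat for export, had a median difference of -6.90, with 1 of 17 at organ level and 13 far below it. Fabp2, the intestinal fatty acid binding protein, was at -2.49 in day 46 tissue, against 10.01 in adult intestine, 5824-fold lower. Its liver relative Fabp1 was at -0.66 in day 46 tissue, against 9.47 in adult intestine. The apolipoproteins Apoa4 (-10.04), Apoc3 (-7.41), Apob (-7.24) and Apoa1 (-6.90) and the transfer protein Mttp (-7.24), which loads fat onto Apob, were all far below the organ. The enzymes of triglyceride synthesis differed by -7.51 (Mogat2), -6.01 (Dgat1) and -4.08 (Dgat2). Members nearer the organ were Acsl5 (-3.97), Apobec1 (-2.15) and the phospholipase Plb1 (-0.74, and 0.16 as a mean over its probes), which was the single member at organ level.

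Transporters carry the digested nutrients across the enterocyte, and 3 of the 26 that were well above background in adult intestine were at organ level (median difference -7.63 over 27 compared). The glucose carrier Slc5a1 was at -6.36 in day 46 tissue, against 4.54 in adult intestine, and the fructose carrier Slc2a5 was at -6.33 in day 46 tissue, against 5.99 in adult intestine. The peptide carrier Slc15a1 was not well above background in day 46 tissue and was at 3.78 in adult intestine, at least 1917-fold lower. Amino acid carriers differed by -10.79 (Slc6a19), -9.45 (Slc3a1) and -8.06 (Slc7a9), and the bile acid exporter subunits by -9.83 (Slc51a) and -9.39 (Slc51b). Sugar, peptide, amino acid and bile acid carriers therefore all lay far below the organ, with the exception of Slc10a2, the ileal bile acid importer, at -3.41 with a level of -5.41 in day 46 tissue.

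The transporters at organ level were those of iron. Slc11a2, the apical iron importer, was at 0.88 in day 46 tissue, against 1.24 in adult intestine. Slc40a1 (ferroportin), the iron exporter, was at 0.43 in day 46 tissue, against -0.14 in adult intestine. The ferric reductase Cybrd1 was at 0.63 in day 46 tissue, against -4.36 in adult intestine, a difference of 4.99. The other iron genes of the list did not follow: the ferroxidase Heph differed by -8.39 and the haem and folate carrier Slc46a1 by -6.83. Trpv6, a calcium channel, was not well above background in adult intestine and at -2.85 in day 46 tissue, at least 10.0-fold higher, although it differed by only 0.32 with normexp correction.

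Structural genes of the brush border had no member of 15 at organ level, with a median difference of -6.14, and 4 of them lay within 16-fold. Villin, Vil1, which bundles actin in microvilli, was at 3.79 in day 46 tissue, against 8.03 in adult intestine, 18.8-fold lower. Krt20, a keratin of mature intestinal and gastric surface cells, was at 5.88 in day 46 tissue, against 9.46 in adult intestine, a difference of -3.58, and at 1.04 in day 42 tissue and 3.66 in stomach. The galectin Lgals4 was at 6.06 in day 46 tissue, against 8.82 in adult intestine, 6.76-fold lower. Krt20, Lgals4, Gpa33 (-3.11) and the actin-capping protein Eps8 (-1.49) were the 4 within 16-fold. The protocadherins of the microvillus tip, Cdhr5 (-10.24) and Cdhr2 (-8.82), the motor Myo1a (-8.32) and the intestinal cadherin Cdh17 (-8.50) were far below the organ.

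Enterocyte metabolism had 2 of 18 genes at organ level (median difference -5.93). The glutathione transferase Gsta1 was at 6.05 in day 46 tissue, against 5.38 in adult intestine. Ass1, an enzyme of arginine synthesis, was at 2.83 in day 46 tissue, against -1.71 in adult intestine, a difference of 4.54. The fructose enzyme ketohexokinase (Khk) was far below the organ, at -5.45, as were the retinol carrier Rbp2 (-8.24) and the cytochromes Cyp4f14 (-12.06) and Cyp3a11 (-6.53). Cyp3a13 differed by -4.56 and Cyp2c66 by -3.01, and both were higher in day 46 tissue (3.29 and 2.42) than in day 42 tissue (-0.42 and -2.13).

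The listed Paneth cell products were split, with 3 of 12 at organ level and 9 far below it (median difference -4.78 over 13 compared). Lysozyme, Lyz1, was at 5.72 in day 46 tissue, against 4.48 in adult intestine, and Lyz1 differs little in sequence from Lyz2 of macrophages, which was at 7.67 in day 46 tissue and 6.33 in adult intestine. The metalloprotease Mmp7, which activates defensins, was at 3.32 in day 46 tissue, against -0.17 in adult intestine, a difference of 3.49. Nod2, a sensor of bacterial cell walls, was at -1.88 in day 46 tissue, against -3.24 in adult intestine. Those 3 were also at organ level in day 42 tissue, with levels of 5.70, 6.21 and -0.13.

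The other listed Paneth cell products that were well above background in adult intestine lay on the other side. The defensins Defa29 (-10.98), Defa5 (-7.06), Defa22 (-6.65), Defa20 (-6.57) and Defa3 (-4.26) were far below the organ, and Defa21 was at least 1184-fold lower. Defensin genes are near-identical copies, so a probe may read more than 1 of them and the values of single members are uncertain. Itln1, a lectin, and Ang4, an antimicrobial ribonuclease, differed by -4.78 and -4.75, and the pentraxin Mptx1 was at least 358-fold lower.

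Genes of mucosal defence held members far above and far below the organ (5 of 14 at organ level, median difference -2.52). Lcn2, which withholds bacterial iron, was at 2.27 in day 46 tissue, against -4.17 in adult intestine, a difference of 6.44. Serum amyloid Saa3 was at 6.23 in day 46 tissue, against 2.08 in adult intestine, and Duoxa2, the maturation factor of the oxidase Duox2, was at 1.67 in day 46 tissue, against -1.83 in adult intestine. Dmbt1, a scavenger receptor of mucus, differed by 1.57. Saa1 differed by 2.63 on the probe used, but by -1.01 as a mean over its probes. Lypd8, which keeps flagellated bacteria from the epithelium, was at 5.31 in day 46 tissue, against 7.12 in adult intestine, 3.52-fold lower, with -1.02 in day 42 tissue.

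The Reg lectins were far below the intestine. Reg3g was at -1.87 in day 46 tissue, against 6.54 in adult intestine, and Reg3b was at -0.02 in day 46 tissue, against 7.99 in adult intestine. Reg3a (-10.86), Reg4 (-9.73) and Reg1 (-5.96) lay on the same side. The antibody transporter Pigr was at -0.64 in day 46 tissue, against 6.37 in adult intestine, a difference of -7.01. Slpi differed by -3.22 on the probe used and by 0.99 on another.

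Enteroendocrine genes were low in day 46 tissue, with 3 of 23 at organ level, 13 far below and a median difference of -4.77, or -3.26 with normexp correction. Among the hormones, Gip was at -5.98 in day 46 tissue, against 3.66 in adult intestine, secretin (Sct) was at -2.98 in day 46 tissue, against 6.30 in adult intestine, and Cck was at -5.22 in day 46 tissue, against 3.70 in adult intestine. The secretory granule proteins Chgb (-7.80) and Chga (-7.02) were also far below the organ. In adult stomach 11 of the 23 were at organ level, among them ghrelin (Ghrl), which was at -3.39 in day 46 tissue, 7.74 in stomach and 1.39 in intestine. Those at organ level in day 46 tissue included the factor Neurog3 (-0.45) and gastrin (Gast, 0.33). With normexp correction Gast differed by -0.90 and Neurog3 by -1.08, which is below organ level. Gast was low on both arrays (-3.78 in day 46 tissue and -4.12 in adult intestine). Neurod1, Pax4 and Nkx2-2, which specify endocrine cells, were not well above background in day 46 tissue and at least 5.86-fold, 7.49-fold and 4.59-fold lower.

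Tuft cell genes had 10 of 14 at organ level (71.4%, against 73.6% of all genes) and a median difference of 0.00, or -0.50 with another background correction. Dclk1, a kinase used to mark tuft cells, was at -2.01 in day 46 tissue, against -2.46 in adult intestine, and the villin relative Avil was at -1.71 in day 46 tissue, against -2.64 in adult intestine. The lineage factor Pou2f3 was at -4.76 in day 46 tissue, against -5.22 in adult intestine. With another background correction Dclk1 differed by -0.43 and Pou2f3 by -1.37, so their direction depended on it. The taste channel Trpm5 (-2.76), the leukotriene synthase Ltc4s (-3.69) and Rgs13 (-4.20) were lower. Several of the list's genes are shared with blood cells: Alox5, Ptgs1, Hpgds and Plcg2 are also made by myeloid or mast cells.

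Crypt stem cell genes had 14 of 17 at organ level (82.4%), which is near the 73.6% of all genes, with none far below it and a median difference of 0.55. Of the 17, 6 exceeded the intestine by 2-fold or more and 3 fell short of it by as much, where all compared genes gave 23.9% and 24.2%. Lgr5, the R-spondin receptor that marks crypt stem cells, was at 0.08 in day 46 tissue, against -1.83 in adult intestine, 3.77-fold higher. The Ephrin receptors that position cells along the crypt were also higher, Ephb2 at 1.88 in day 46 tissue and -1.42 in adult intestine, and Ephb3 at 1.41 in day 46 tissue and -1.71 in adult intestine. Cd44 (3.28), Sox9 (2.64) and Prom1 (1.77) lay on the same side, and these genes also serve in other epithelia and in mesenchyme. The Wnt targets Axin2 (0.11), Ascl2 (0.08) and Znrf3 (0.55) lay within 2-fold, with signs that turned with another background correction, and Rnf43 differed by 0.96. Smoc2 was the member furthest below the organ, at -0.89 in day 46 tissue and 2.94 in adult intestine. Day 42 tissue had 15 of the 17 at organ level, where all genes gave 73.7%, with Lgr5 at 2.43. Adult stomach also had 15, where all genes gave 81.3%.

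Transcription factors of the intestinal epithelium ran from far below the organ to above it. Cdx2, the master factor of intestinal identity, was at -3.99 in day 46 tissue, against 3.84 in adult intestine, 227-fold lower. It was at -4.38 in day 42 tissue, and not well above background in adult stomach. Cdx1 was at -6.53 in day 46 tissue, against -0.71 in adult intestine, and not well above background in day 42 tissue or stomach. A signal as weak as -6.53 would have gone undetected there, since detection stopped at -5.57 for day 42 tissue and -6.32 for stomach. Whether Cdx1 was higher in day 46 tissue than in those samples therefore cannot be told. Both Cdx factors were above background in day 46 tissue, and both lay far below the organ.

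The nuclear receptors and partners of the enterocyte were also lower. Hnf4g was at -3.21 in day 46 tissue, against 2.41 in adult intestine, and Hnf4a at -0.69 in day 46 tissue, against 3.56 in adult intestine, with probes between -6.12 and -2.15. Creb3l3, a regulator of lipid genes, differed by -5.69, Ppara by -5.20, the xenobiotic receptor Nr1i2 by -4.23, the vitamin D receptor Vdr by -3.97 and the bile acid receptor Nr1h4 by -2.94. In all, 11 of 28 factors were at organ level, 7 far below it, and the median difference was -1.35.

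Factors at organ level included several of the whole gut tube. Foxa2 was at 2.37 in day 46 tissue, against -1.24 in adult intestine and 3.57 in stomach. Foxa1 was at 0.18 in day 46 tissue, against -2.75 in adult intestine. Gata6 was at 3.23 in day 46 tissue, against 3.56 in adult intestine, a difference of -0.33 that was 0.05 under quantile normalization and -1.56 as a mean over its probes. The epithelial factor Elf3 was at 2.38 in day 46 tissue, against 2.12 in adult intestine. Onecut2, which patterns the duodenum, liver and pancreas, was at 4.00 in day 46 tissue, against 2.10 in adult intestine, 3.72-fold higher, and was at -3.77 in adult stomach. Pdx1, a factor of pancreas, duodenum and antrum, was at -2.68 in day 46 tissue, against -3.94 in adult intestine.

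**Figure D4:**
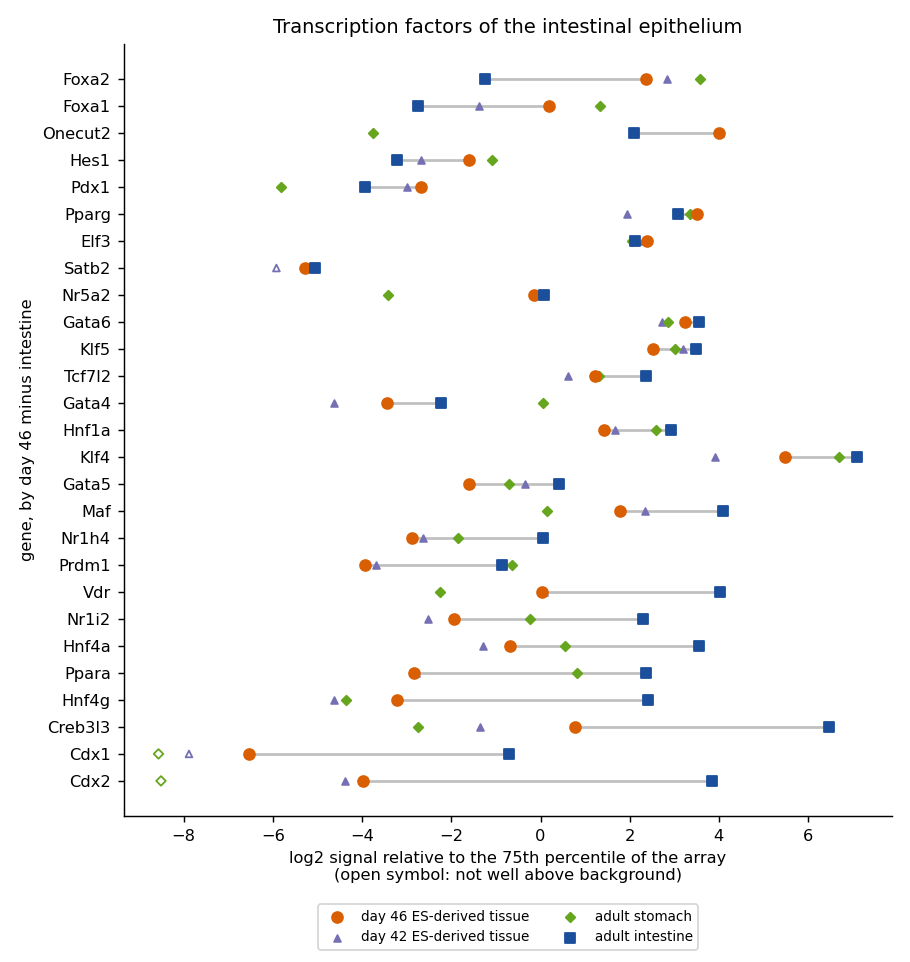
Log2 signal relative to the 75th percentile of the array for 27 of the 28 transcription factors, ordered by the difference of day 46 tissue minus adult intestine, with day 42 tissue and adult stomach beside them and 1 array per group. Open symbols are not well above background and small symbols can lie under larger ones; Foxa2, Foxa1 and Onecut2 lie to the right of the intestine in day 46 tissue, and Cdx2, Cdx1, Creb3l3 and Hnf4g lie furthest to its left.

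The stretches before the start of 7 genes of the lists are shown, and they were searched for letters read by Cdx and Hnf4 factors. Each is the 250 bases before the RefSeq start on GRCm38.p6, 5′ to 3′ on the strand of the gene. Capitals mark TTTATG, the core of the Cdx motif, or its reverse complement CATAAA, and CAAAGTCCA, a motif of Hnf4 factors, on either strand. The first 4 genes are enterocyte genes far below the organ, Agr2 and Krt20 are the goblet and surface cell genes described above, and Gkn2 is a gastric gene for contrast.
Sis, chr3:72967864-72968113, minus strand: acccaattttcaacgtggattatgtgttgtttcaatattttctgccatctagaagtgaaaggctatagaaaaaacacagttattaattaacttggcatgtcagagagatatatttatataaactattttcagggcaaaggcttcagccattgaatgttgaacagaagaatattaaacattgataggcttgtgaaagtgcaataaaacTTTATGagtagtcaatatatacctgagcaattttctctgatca
Lct, chr1:128328319-128328568, minus strand: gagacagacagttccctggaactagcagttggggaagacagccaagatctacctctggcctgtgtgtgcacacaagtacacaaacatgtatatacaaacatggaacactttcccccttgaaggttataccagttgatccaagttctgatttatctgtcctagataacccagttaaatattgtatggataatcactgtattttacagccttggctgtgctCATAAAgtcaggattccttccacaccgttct
Alpi, chr1:87101607-87101856, minus strand: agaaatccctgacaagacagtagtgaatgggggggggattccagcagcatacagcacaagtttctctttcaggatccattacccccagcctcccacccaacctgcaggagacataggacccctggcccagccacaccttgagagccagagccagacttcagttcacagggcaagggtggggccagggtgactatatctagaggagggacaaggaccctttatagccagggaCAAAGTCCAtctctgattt
Fabp1, chr6:71199629-71199878, plus strand: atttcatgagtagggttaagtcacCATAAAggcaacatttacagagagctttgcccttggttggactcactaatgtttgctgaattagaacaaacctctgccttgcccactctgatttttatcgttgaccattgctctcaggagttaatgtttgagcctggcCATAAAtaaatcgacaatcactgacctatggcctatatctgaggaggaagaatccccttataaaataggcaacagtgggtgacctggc
Agr2, chr12:35992675-35992924, plus strand: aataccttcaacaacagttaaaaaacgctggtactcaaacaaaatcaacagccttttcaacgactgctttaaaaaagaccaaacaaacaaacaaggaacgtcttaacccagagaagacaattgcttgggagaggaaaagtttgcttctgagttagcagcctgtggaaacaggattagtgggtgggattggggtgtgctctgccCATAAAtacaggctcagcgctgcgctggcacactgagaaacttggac
Krt20, chr11:99438154-99438403, minus strand: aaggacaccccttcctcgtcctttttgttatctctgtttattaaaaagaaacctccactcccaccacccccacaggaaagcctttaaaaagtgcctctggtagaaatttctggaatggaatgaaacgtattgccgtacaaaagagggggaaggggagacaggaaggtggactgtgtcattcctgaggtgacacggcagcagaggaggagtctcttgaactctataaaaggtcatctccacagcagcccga
Gkn2, chr6:87373115-87373364, plus strand: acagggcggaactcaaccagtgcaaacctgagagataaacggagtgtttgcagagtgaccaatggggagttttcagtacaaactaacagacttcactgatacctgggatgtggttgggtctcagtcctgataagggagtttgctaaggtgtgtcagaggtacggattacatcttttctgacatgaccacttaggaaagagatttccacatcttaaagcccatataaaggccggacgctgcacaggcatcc

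In these stretches TTTATG lay 43 bases before the start of Sis and, as CATAAA, 31 bases before that of Lct, 226 and 88 before that of Fabp1 and 47 before that of Agr2. CAAAGTCCA lay 19 bases before the start of Alpi, and neither was found in the stretches of Krt20 and Gkn2. TTTATG was present before the start of 10 of 51 genes of the absorptive lists (19.6%), against 12.4% of 27025 genes of the reference table. Several lists that are not absorptive gave higher shares: TTTATG was present for 6 of 17 cardiac muscle genes (35.3%), which were mostly higher in day 46 tissue, 4 of 12 tuft cell genes (33.3%), 4 of 12 pancreatic acinar genes (33.3%) and 4 of 14 mucosal defence genes (28.6%). It was found for 5 of 14 genes of fat uptake, 3 of 14 hydrolases and 2 of 23 transporters. CAAAGTCCA was present for 4 of the 51 absorptive genes, against 0.451% of all genes, and for 1 of 12 pancreatic acinar genes. The letters CATAAA share ATAAA with the TATA box TATAAA, which usually lies about where the match in Lct was found, and the 2 motifs did not overlap in any stretch shown. A match describes the letters and is not a measured binding site.

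A second set of intestinal genes was drawn from the adult organs themselves. On the organ arrays, 362 genes were at least 8-fold higher in intestine than in each of stomach, esophagus and lung. The intestine array chose them, so low values elsewhere are a description and carry no test. In day 46 tissue 11 of them (3.04%) were at organ level, 89 were between 2-fold and 16-fold lower and 262 far below, with a median difference of -5.64. All genes well above background in adult intestine gave 73.6% at organ level and 4.21% far below. The share far below rose with the level in intestine, from 57.9% of the 121 lowest genes to 81.8% of the 121 highest. Day 42 tissue had 8 at organ level, with a median of -5.56.

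The intestine-enriched genes at organ level were few and of mixed kinds. Beside Mmp7, Clca1, Onecut2 and the nuclear receptor Nr5a2 (-0.24), they held Onecut1, which was at 2.19 in day 46 tissue, against -0.32 in adult intestine. The stress gene Gadd45a was at 3.09 in day 46 tissue, against 2.70 in adult intestine, and the aldo-keto reductase Akr1b7 at 4.89 in day 46 tissue, against 5.14 in adult intestine. The others were Bmp8b (0.05), the defensin Defa31 (-0.21), the receptor subunit Gabra3 (-0.48) and the membrane protein Tm4sf4 (-0.74). The sign turned with normexp correction for Bmp8b, under quantile normalization for Akr1b7 and with the mean over probes for Gabra3. Just outside the threshold lay the chloride channel Clcn2 (-1.09), at 3.12 in day 46 tissue and 4.21 in adult intestine, followed by Eps8, the kinase Frk (-1.55) and the water channel Aqp8 (-1.59).

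The part of the gut in the intestine sample bears on these values. The adult intestine array was high in genes of the small intestine, such as Lct, Sis and Fabp2, whereas Fabp6, which marks the ileum, and the hindgut factors Hoxd10, Hoxd11 and Hoxd13 were not well above background there. Other genes of these segments were detected: 8 of 11 colon genes were well above background, at levels up to 2.04. Among them was Aqp8 at 0.96, and the ileal importer Slc10a2 was also detected. Which parts of the intestine the sample held therefore cannot be told from these genes. Small intestine genes had 1 of 12 at organ level in day 46 tissue and a median difference of -7.57. Colon genes had 4 of the 8 detected in adult intestine at organ level (50%, against 73.6% of all genes). Their median difference was -0.21 over 11 compared, or -1.39 with normexp correction. The median level in adult intestine was -5.06 for colon genes and 6.55 for small intestine genes. Colon genes thus had little room to fall before reaching background, and the 2 lists cannot be ranked by these values. Hoxb13, a factor of the distal colon, was low on both arrays, at -6.31 in day 46 tissue and -5.81 in adult intestine. The colonic chloride exchanger Slc26a3 was lower by at least 574-fold, and Hoxd12 differed by 1.07, or by -1.03 with another background correction.

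Gastric genes lay on the opposite side of the comparison. Of 10 gastric surface mucous genes compared, 9 were at least 2-fold higher in day 46 tissue (median difference 6.05, or 3.06 with normexp correction), a direction that 23.9% of all genes took by 2-fold or more, with 24.2% lower by that much. Gkn2 was at 7.23 in day 46 tissue and not well above background in adult intestine, at least 10835-fold higher, and Anxa10 was at 5.60 in day 46 tissue, at least 3511-fold higher. Tff1 was at 6.19 in day 46 tissue, against -2.62 in adult intestine. Of 9 gastric gland genes 5 were at least 2-fold higher and none lower (median 1.00), but the median was 0 with normexp correction. Intrinsic factor, Cblif, was at least 14.5-fold higher in the setting used, and differed by 0.43 (1.35-fold) with normexp correction, and pepsinogen C (Pgc) differed by 3.80. Of 6 foregut regulators 4 were at least 4-fold higher, 1 was within 2-fold and 1 at least 4-fold lower, with a median of 3.61, or 0.08 over the 2 above background on both arrays. Sox2, Sox21 and Tbx5 were not well above background in the intestine and at least 23.2-fold, 41.4-fold and 51.2-fold higher in day 46 tissue, values that came to 2.28-fold, 3.19-fold and 4.03-fold with normexp correction. Squamous epithelium genes had 10 of 13 at least 2-fold higher (median 2.52, or 1.01 with normexp correction), led by Ivl, an envelope protein of keratinized cells, at least 158-fold higher.

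**Figure D5:**
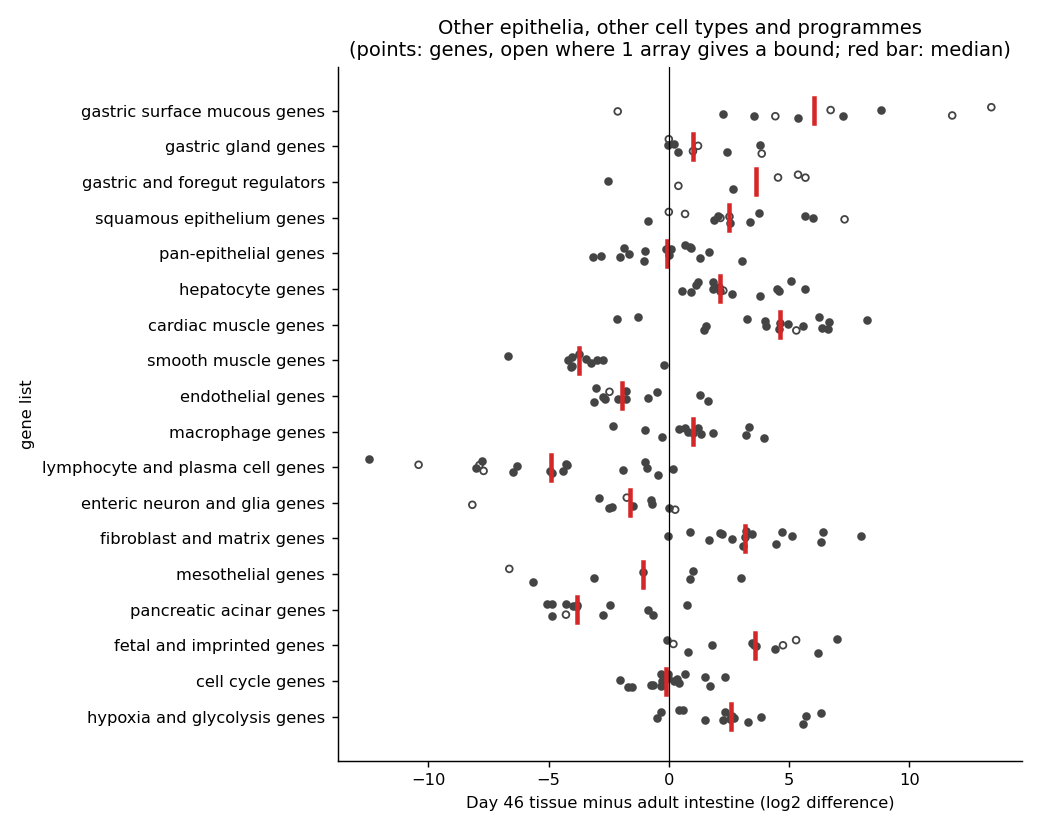
Log2 difference of day 46 tissue minus adult intestine for each gene of lists outside the intestinal epithelium (1 point per gene, 1 array per group, open where 1 array gives a bound), with the list median as a red bar. Gastric surface mucous (6.05), cardiac muscle (4.64) and fibroblast (3.19) medians lie right of 0, and lymphocyte (-4.88) and smooth muscle (-3.74) medians left of it.

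The 2 samples also differed in genes of other cell types, which were measured beside the intestinal lists. Genes common to all epithelia had a median difference of -0.06, or 0.18 under quantile normalization, with 10 of 16 at organ level. Their levels ran from -1.18 to 7.35 in day 46 tissue and from -2.10 to 8.99 in adult intestine. Epcam was at 3.31 in day 46 tissue, against 5.34 in adult intestine, and Cldn7 at 4.37 in day 46 tissue, against 7.54 in adult intestine, whereas Krt7 was at 3.88 in day 46 tissue, against 0.82 in adult intestine. The median difference of the 222 intestinal list genes compared was -4.03. The part of a different share of epithelial cells in the intestinal results was not tested.

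Genes of smooth muscle, lymphocytes, endothelium and enteric neurons were mostly lower in day 46 tissue. Of all genes compared, 24.2% were lower by 2-fold or more and 23.9% higher by as much. Smooth muscle genes were at least 2-fold lower for 10 of 11, with a median of -3.74 and levels from -2.31 to 5.70 in day 46 tissue and from 0.53 to 8.45 in adult intestine. Lymphocyte and plasma cell genes were at least 2-fold lower for 15 of 18 (median -4.88), from -8.93 to 0.59 in day 46 tissue and from -3.80 to 5.59 in adult intestine. The antibody joining chain Jchain was 5636-fold lower, and the T cell genes Gzma and Cd8a were at least 1351-fold and 234-fold lower, with neither well above background in day 46 tissue. Endothelial genes were at least 2-fold lower for 8 of 12 (median -1.95), with Kdr at -3.10 and Vwf at -3.02. Enteric neuron and glia genes were lower for 6 of 10 (median -1.62), with Vip, a neuropeptide, at least 287-fold lower.

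Fibroblast, cardiac muscle and hepatocyte genes were mostly higher in day 46 tissue, where all genes compared gave 23.9% higher and 24.2% lower by 2-fold or more. Fibroblast and matrix genes were at least 2-fold higher for 14 of 16 (median 3.19), with levels from 1.27 to 7.87 in day 46 tissue and from -4.85 to 7.28 in adult intestine. The collagen Col1a1 was at 7.20 in day 46 tissue, against 2.07 in adult intestine. Cardiac muscle genes were at least 2-fold higher for 15 of 17 (median 4.64), led by the myosin Myh6 at 3.40 in day 46 tissue and -4.85 in adult intestine. Hepatocyte genes were at least 2-fold higher for 13 of 15 (median 2.11), with albumin (Alb) at 6.08 in day 46 tissue and 0.41 in adult intestine. Macrophage genes went both ways, with 6 of 13 at least 2-fold higher, 5 within 2-fold and 2 at least 2-fold lower (median 0.99). They ran from the receptor Marco, at 5.99 in day 46 tissue and 2.06 in adult intestine, to the haemoglobin receptor Cd163, at -1.67 in day 46 tissue and 0.65 in adult intestine. Liver cells also express Fabp1, Apoa1, Ass1 and Creb3l3, and macrophages express Saa3, Lyz2 and Lcn2, so those members are not particular to the intestinal epithelium, and the part of these cells in their values was not tested.

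The largest single differences came from genes inside and outside the lists. On the lower side, among genes above background on both arrays, lay the fat cell protease Cfd (-14.41), the gut peptide uroguanylin Guca2b (-13.65), the muscle and fat enzyme Car3 (-12.55) and Clca4b (-12.35), a relative of Clca1. Hba-a1, a globin of red cells, differed by -11.84. On the higher side lay the matrix protein Spp1, at 7.46 in day 46 tissue and -3.39 in adult intestine, a 1842-fold higher signal, then Igfbp1 (10.05), the secreted inhibitor Wfdc2 (9.89) and Tff1 (8.81). The gastric protease Ctse was at 5.16 in day 46 tissue, against -2.50 in adult intestine. Where the genes at least 4-fold apart had other probes above background, 933 of 1028 such probes (90.8%) differed in the same direction.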

How the data were processed

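Per the labels' protocols, total RNA was labelled with Cy3 for one-colour Agilent arrays. The submitters' processing notes name Agilent Feature Extraction 10.5. The headers give version 10.7.3.1 on the day 46 array and 10.5.1.1 on the intestine array. The scanner files deposited by the authors hold the processed, background-corrected intensity of each of 45018 spots, of which 43379 are not controls. The authors also deposited a table of log2 values shifted to the 75th percentile, of 41265 rows with column medians between -3.43 and -2.68. Its values correlated with those used here at 0.999 or above, on the same scale and in the same direction.

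Control spots were removed, as were outliers (104 on the day 46 array and 40 on the intestine array), and saturation was absent. Repeat spots of a probe were averaged as log2 intensity, and the 75th percentile of the array was subtracted. RefSeq's table, used for names alone, gave a gene to 24375 of 41174 probes through their accession and to 57 through a symbol, which left 16742 without a name. The probe with the highest mean stood for each of 17041 genes, and 5797 had several. A probe was well above background where at least 0.5 of its spots carried the software's flag. Where 1 array did not detect a gene, its level there was set to its own signal or that array's lowest signal above background, whichever was higher, and a difference that this turned round was set to 0. Probes spotted repeatedly had a median standard deviation of 0.07 on the day 46 array and 0.09 on the intestine array. Arrays carry no read depth, and their number limits the precision.

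The members, the 33 gene lists (505 genes, 472 with a named probe) and the comparisons were chosen with earlier results of these data known, so that list directions are no independent support. Genes named were any member of the intestinal and segment lists, up to 4 members of another list with the largest absolute difference, the 12 largest and 12 smallest differences, the 6 largest bounds on each side and the 15 highest intestine-enriched genes; the text names fewer, and some list members, though counted, are not reported here by name. Levels of Lyz2 are quoted beside its near copy. Promoters were matched by symbol. The counting was tested on simulated data. As alternatives, the authors' table, quantile normalization, centring on the median, normexp background correction (limma 3.58.1, offset 50), no background filter, genes above background on both arrays, the mean over probes, and other thresholds were used. Python 3.11.15, pandas 2.3.3 and R 4.3.3 ran the steps.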

Additional observations from a re-analysis of the deposited data

Results flagged for a closer look

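Probes that could not be named were left out of the lists and counts, and among the 12389 of them above background on at least 1 of the 2 arrays, 1261 were at least 4-fold higher in day 46 tissue than in adult intestine and 1218 at least 4-fold lower. They stand out because this is signal in data that the comparison of named genes does not use.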

How the results depend on the processing

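No paired analysis was possible because each group had 1 array, and for the same reason no array could be left out. The count of genes at least 4-fold higher in day 46 tissue was 766 with normexp background correction, against 1468 in the main setting, and the count at least 4-fold lower was 1702, so that the higher share of both was 31.0% in place of 43.3%. That correction moved the median difference of all genes to -0.13, from 0.07. At 2-fold in place of 4-fold, 3754 genes were higher and 3794 lower. The intestine-enriched genes at organ level numbered 6 of 264 with normexp correction, 21 of 362 with the threshold at -2, and 46 of 669 when enrichment was set at 4-fold. In each of these the share at organ level stayed between 2.27% and 6.88%. Of 330 named genes, 16 changed sign under at least 1 alternative, 12 of them less than 2-fold apart in the main setting. Among those at least 2-fold apart, directions turned with normexp correction for Creb3l1 (-0.0437), Hpgds (-0.12) and Hoxd12 (-1.03), and with the mean over probes for Saa1 (-1.01); the cause was not tested. Of 2257 values of named genes under the normalization, filter and probe alternatives, 2095 moved by less than the standard deviation between probes. Of 231 list medians, 213 were stable, and 2 lists, tuft cell and pan-epithelial, changed sign near 0. Signal over background limits the genes given as bounds, and with 1 array per group the spread between cultures or animals is unknown.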

Other observations

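Hypoxia and glycolysis genes were at least 2-fold higher in day 46 tissue for 12 of 16 and lower for none (median difference 2.57), led by the prolyl hydroxylase subunit P4ha2, at 6.21 in day 46 tissue and -0.10 in adult intestine, and the glucose carrier Slc2a1, at 5.96 in day 46 tissue and 0.27 in adult intestine. Fetal and imprinted genes were at least 2-fold higher for 9 of 12 (median 3.56, or 2.001 with normexp correction), with the growth factor Igf2 at 6.97 in day 46 tissue and -0.02 in adult intestine, and the RNA-binding protein Igf2bp1 at least 39.1-fold higher, or 1.75 on the log2 scale with normexp correction. Day 42 tissue gave medians of 2.58 and 4.13 for these lists against the same intestine array. Cell cycle genes had a median of -0.12, with 3 of 19 at least 2-fold higher, among them Cdk1 (2.35), and 3 lower, among them Birc5 (-2.02), below the 23.9% and 24.2% of all genes that were higher and lower by that much.

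Pancreatic acinar genes were at least 2-fold lower in day 46 tissue for 10 of 13 (median -3.81), where all compared genes gave 24.2%. The colipase gene Clps was at -1.93 in day 46 tissue and 3.13 in adult intestine. Mesothelial genes had a median of -1.08 and went both ways, with Upk3b at -4.60 in day 46 tissue and 1.04 in adult intestine, and Msln at 6.51 in day 46 tissue and 3.49 in adult intestine.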
